A study of Mus musculus with 8 samples.

Results

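The translation initiation and elongation factors are the soluble proteins that load messenger RNA onto the ribosome and drive it codon by codon. Here they were all genes of the count table whose symbol starts with Eif1, Eif2, Eif3, Eif4, Eif5, Eif6, Eef1 or Eef2, leaving out 6 pseudogenes. The rule found 62 of the 12404 genes, and 60 of them passed the filter on low counts. The compared cells were BPA-exposed TM3 cells and normal TM3 cells. TM3 is a mouse cell line of Leydig origin; Leydig cells lie between the testis tubules and make testosterone. Bisphenol A (BPA), a monomer used in polycarbonate plastic, can bind estrogen receptors. The labels used here give no dose, no exposure time, no vehicle and no treatment of the normal cells. Each condition had 2 RNA-seq libraries and 2 libraries of MeRIP-seq, in which an antibody against N6-methyladenosine (m6A) pulls down RNA fragments that carry this mark. The labels do not say whether replicates came from separate cultures, so each p-value speaks only of the scatter among these libraries, part of which may be technical.

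In initiation, eIF4F binds the cap of the mRNA through its subunit eIF4E, holds the mRNA on the scaffold eIF4G and unwinds the leader with the helicase eIF4A, while the eIF4E-binding proteins block this step. The initiator tRNA arrives on eIF2, which is recharged by the exchange factor eIF2B and is inhibited by 4 stress kinases, Eif2ak1 to Eif2ak4. The large complex eIF3 bridges the mRNA and the small ribosomal subunit, eIF1, eIF1A and eIF5 select the start codon, and eIF5B joins the subunits. In elongation eEF1A delivers aminoacyl-tRNA, the eEF1B complex recharges it, eEF2 moves the ribosome along and eIF5A relieves stalls. Leydig cells depend on ongoing protein synthesis for steroid production, because the cholesterol carrier StAR is short-lived.

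The count libraries held 8813870 and 6305121 reads in BPA cells, against 10455643 and 7517482 reads in normal cells. BPA replicate 2 stood apart from the other libraries in the ranks of the factors (rho of 0.767 to 0.788 with the others, which had 0.875 to 0.894 among themselves). Over all tested genes both BPA libraries stood apart from the normal pair, which had a rho of 0.741. There BPA replicate 1 had 0.607 and 0.638 with the normal libraries, and BPA replicate 2 had 0.572 and 0.608. Values without BPA replicate 2 are given beside some of the results it moves, and for others as ranges in the closing section. The 62 factors took 1.90% and 1.80% of all reads under BPA and 2.05% and 1.73% in normal cells, a like share in all 4 libraries. None of the 8 Leydig markers looked for (Star, Cyp11a1, Cyp17a1, Hsd3b1, Hsd3b6, Insl3, Lhcgr and Nr5a1) was among the rows of the table, so the cell type label could not be checked from it. Of markers of other cells, Clu, Wt1 and Rhox5 of 5 Sertoli cell markers, Cd68 of 4 macrophage markers, Acta2 of 4 smooth muscle and endothelial markers and 0 of 4 germ cell markers were rows. Acta2 had 57.9 and 237 CPM (counts-per-million) under BPA and 6.93 and 45.1 CPM in normal cells, and Cd68 had 20.2 and 81.5 against 0 and 7.57 CPM. The 3 Sertoli cell markers summed to 280.3 and 135 CPM in BPA cells and 155 and 296 CPM in normal cells. The part of these cell markers in the results was not tested.

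Promoter sequence is shown for 8 factors on which the results turn: the helicase pair Eif4a2 and Eif4a1, the scaffold Eif4g1, the cap-binding Eif4e, the eIF3 subunits Eif3a and Eif3f, the elongation factors Eif5a2 and Eef2. The stretches run from 100 bases before to 30 bases after an annotated start, are from RefSeq in build GRCm38.p6, and are written 5′ to 3′ on the strand of the gene. Capitals mark the motifs searched: the E-box CACGTG, the cyclic AMP response element TGACGTCA and the GC box GGGCGG on both strands, and the TATA box TATAAA and the pyrimidine core CTCTTNC on the strand of the gene. The mRNAs of many translation factors begin with a C followed by a run of pyrimidines, which places them under the control of the mTOR kinase complex 1.
Eif4a2, chr16:23107368-23107497, plus strand: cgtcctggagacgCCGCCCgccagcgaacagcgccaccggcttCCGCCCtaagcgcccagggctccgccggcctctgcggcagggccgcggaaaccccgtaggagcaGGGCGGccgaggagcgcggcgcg
Eif4a1, chr11:69672394-69672523, minus strand: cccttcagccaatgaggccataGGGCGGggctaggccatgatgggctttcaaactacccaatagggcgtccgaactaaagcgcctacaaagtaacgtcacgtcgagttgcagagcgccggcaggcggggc
Eif4g1, chr16:20672627-20672756, plus strand: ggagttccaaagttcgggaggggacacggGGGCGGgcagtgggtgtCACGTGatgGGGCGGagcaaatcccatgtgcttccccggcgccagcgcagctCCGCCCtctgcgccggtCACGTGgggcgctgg
Eif4e, chr3:138527168-138527297, plus strand: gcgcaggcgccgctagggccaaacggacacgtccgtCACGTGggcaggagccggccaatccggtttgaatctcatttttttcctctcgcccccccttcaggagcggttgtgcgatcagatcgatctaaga
Eif3a, chr19:60790664-60790793, minus strand: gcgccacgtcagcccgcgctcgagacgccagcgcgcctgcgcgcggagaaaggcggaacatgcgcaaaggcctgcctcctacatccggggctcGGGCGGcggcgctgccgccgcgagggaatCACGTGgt
Eif3f, chr7:108934315-108934444, plus strand: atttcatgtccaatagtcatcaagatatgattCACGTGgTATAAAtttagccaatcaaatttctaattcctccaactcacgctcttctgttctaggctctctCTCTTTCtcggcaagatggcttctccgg
Eif5a2, chr3:28781177-28781306, plus strand: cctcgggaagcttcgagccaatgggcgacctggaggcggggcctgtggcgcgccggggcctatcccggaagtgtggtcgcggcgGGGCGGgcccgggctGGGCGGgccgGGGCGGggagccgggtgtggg
Eef2, chr10:81176531-81176660, plus strand: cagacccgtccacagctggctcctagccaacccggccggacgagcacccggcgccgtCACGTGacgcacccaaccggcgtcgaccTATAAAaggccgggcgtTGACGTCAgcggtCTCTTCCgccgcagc
Of the 62 factors 49 had a promoter in the table, with 64 annotated starts in all. An E-box was in 15 of the 64 windows of 300 bases (23.4%), against 7.15% of all 32851 windows, and a GC box was in 44 (68.8%), against 35.7%. All windows include those of predicted genes with Gm symbols. The TATA box was in 6.25% of the factor windows against 8.32% of all, the pyrimidine core in 10.9% against 12.9%, and the response element in 1.56% against 1.79%. In the stretches shown, Eif4g1 carried 2 E-boxes, while Eif4e, Eif3a, Eif3f and Eef2 carried 1 each. The same stretch at another annotated start of Eif4e, and that of Eif5b, are not shown and held no match to any motif searched. The pyrimidine core of Eif3f lay just after the annotated start, and the Eef2 stretch held the response element, a TATA box and a pyrimidine core as well. A match of letters is not a binding site, and the windows follow annotated starts, which need not be the starts used in TM3 cells.

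Between BPA and normal cells no factor passed the test. Among the 25 factors with a mean of 1000 reads or more Eif4a2, a helicase of the eIF4A pair, had the largest difference and was higher in BPA cells. Other abundant initiation factors such as Eif5b, Eif4e and Eif3a had higher values in BPA cells, while Eif4g1 and Eif2s2 had lower ones. A few less abundant factors, among them Eif3f and the kinase gene Eif2ak4, had reads in both normal libraries and almost none in the BPA libraries. Such low BPA counts, at most 10 in each replicate, occurred in 4 of the 60 tested factors (6.67%), beside 15.6% of all tested genes. The shares were not matched for abundance. These 4 factors, with at most 2 reads in each BPA library, passed the filter on low counts only through their normal libraries. The quasi-likelihood F test of edgeR called 0 of the 60 tested factors at an adjusted p of 0.05, against 0.0% of all 8645 tested genes. At an unadjusted p under 0.05 there were 2 factors with higher counts in BPA, Eif4a2 and Eif5a2, where the share of all genes was 2.41%. There were 2 with lower counts, Eef1akmt1 and Eif2ak4, where it was 7.23%. DESeq2 called Eif4a2 higher and Eif3f lower, where it called 0.521% of all genes higher and 2.56% lower. Of the 60 factors 31 had positive and 29 negative log2 fold changes. Their median was 0.13, beside -0.02 for all tested genes. Without BPA replicate 1 it was -0.33, beside -2.87 for all genes of that fit, and without BPA replicate 2 it was 0.01, beside -1.13. Setting Eif3f and Eef1akmt1, with 0 BPA reads, to the bounds their counts allow leaves it the same.

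**Figure D1:**
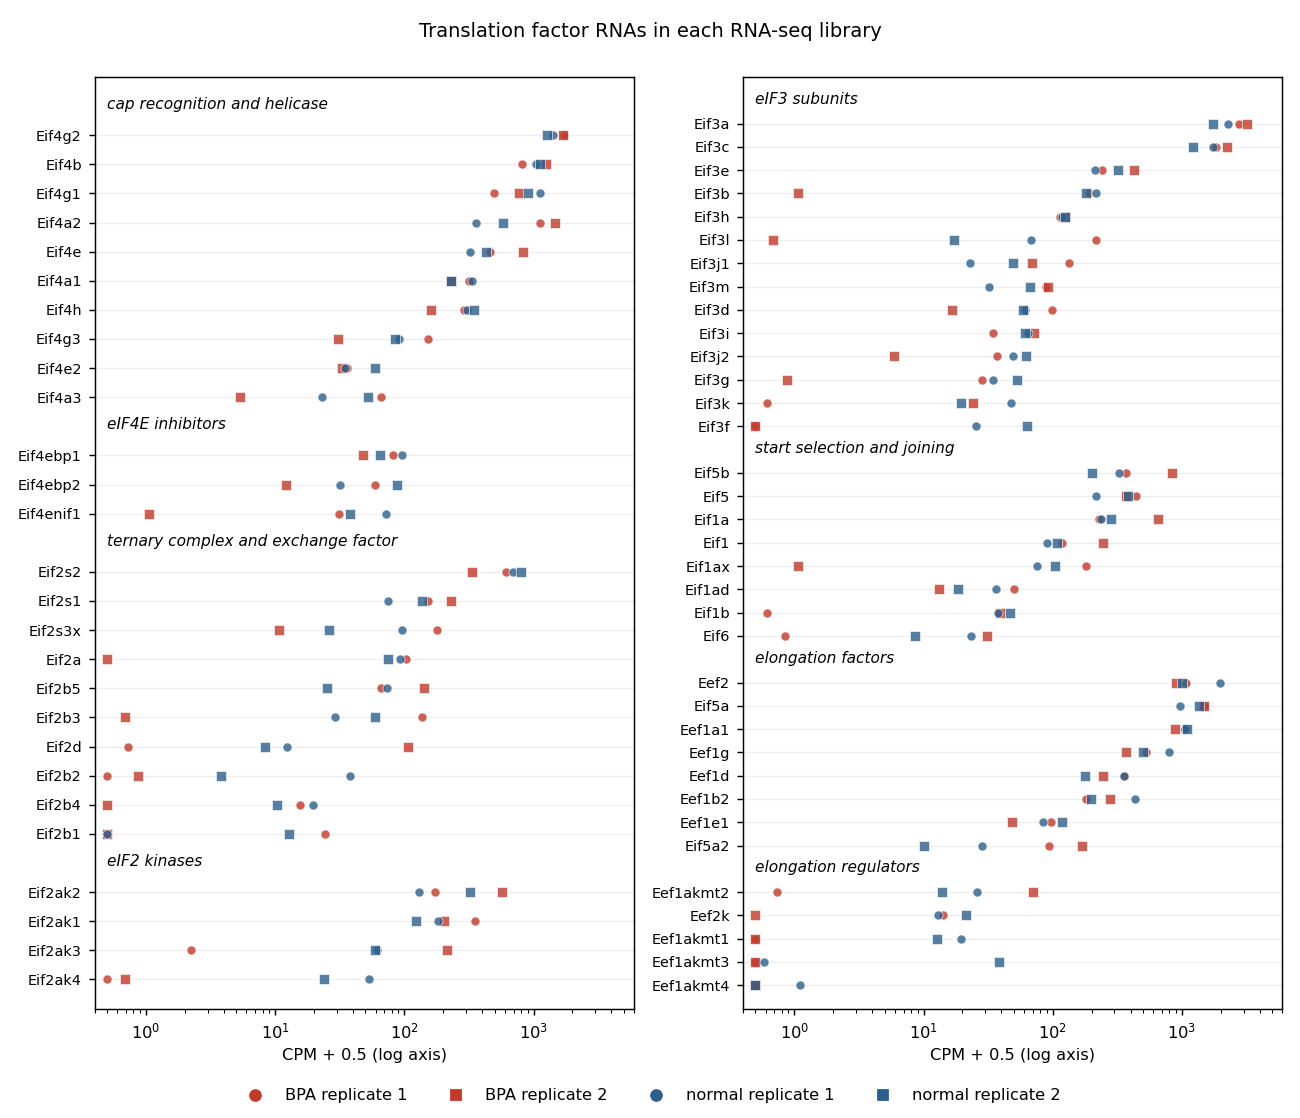
Each row is a translation factor, grouped by role and ordered by mean reads, and the x axis gives CPM plus 0.5 on a log scale. Red symbols are the BPA libraries and blue symbols the normal libraries, with a circle for replicate 1 and a square for replicate 2. Eif4g2, with 1718 CPM in BPA and 1347 CPM in normal cells, has its symbols close together, while red symbols reach the left edge for Eif3f, with 0 reads in both BPA libraries.

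In CPM, 13 of the 60 factors (21.7%) had both BPA values above both normal values, where 12.8% of all tested genes did. In 11 (18.3%) both lay below, where 27.2% of all tested genes did. The factors had more reads than most genes: 25 of the 60 (41.7%) had a mean of at least 1000 reads, against 20.3% of all tested genes. Among genes of that abundance, both BPA libraries were above for 10 of 25 factors, beside 28.4% of all such genes, and below for 4, beside 9.91%. Under 1000 reads they were above for 3 of 35 factors, beside 8.84% of all such genes, and below for 7, beside 31.7%. The median log2 fold change of these 25 factors was 0.35, and that of all 1756 such genes was 0.34. Among the 35 tested factors under 1000 reads the median was -0.28, and that of all such genes was -0.25. At matched abundance the factor medians thus lay close to those of all genes.

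**Figure D2:**
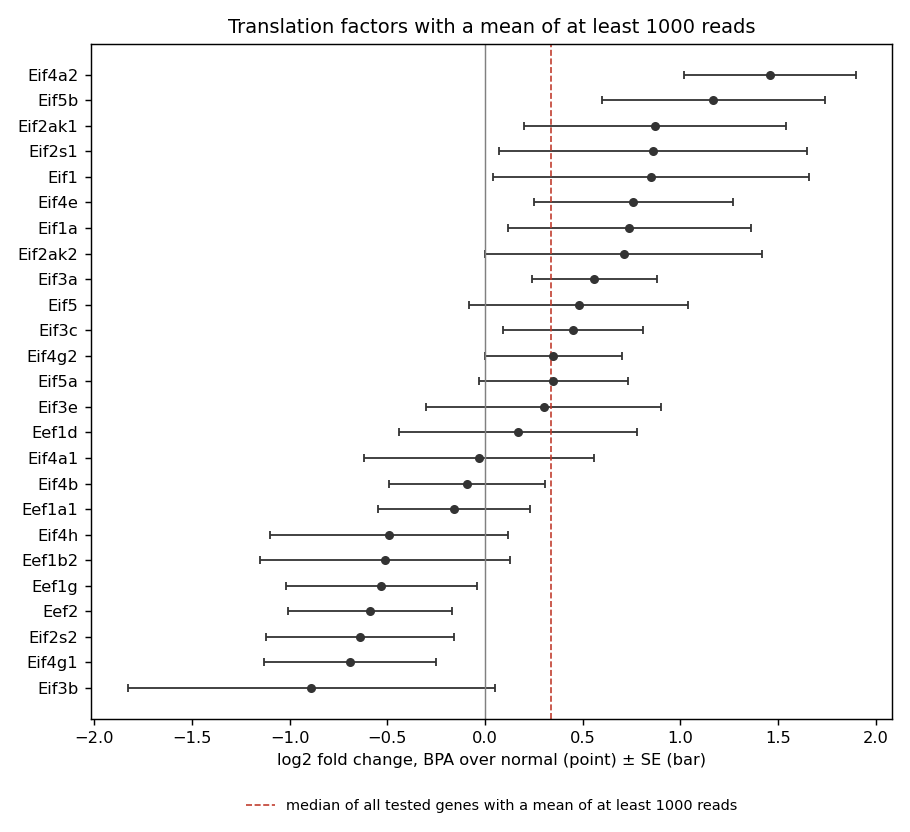
Points are log2 fold changes of BPA over normal from edgeR for the 25 factors with a mean of at least 1000 reads, bars are standard errors, and the dashed line is the median of 0.34 over all 1756 genes of that abundance. Eif4a2 at 1.46 and Eif5b at 1.17 lie highest, and Eif4g1 at -0.69 and Eif3b at -0.89 lowest.

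The cap-binding and helicase factors split by member. Eif4a2 had 9619 and 7818 reads in the BPA libraries, against 4128 and 4543 in the normal libraries. Both BPA libraries were above both normal libraries, with 1289 ± 243 CPM in BPA and 470.2 ± 159 CPM in normal cells (SD, n = 2 each). Its log2 fold change was 1.46 ± 0.44 (SE), with an edgeR adjusted p of 0.372 and a DESeq2 adjusted p of 0.0204. Leaving out a library gave log2 fold changes of 1.26 to 1.87, and a fit restricted to genes averaging 1000 reads or more gave 1.19. Its close relative Eif4a1, the other helicase gene of eIF4F, had 2736 and 1238 reads under BPA, against 3846 and 1784 in normal cells. On the CPM scale the groups overlapped, and the log2 fold change of -0.03 ± 0.59 turned to 0.11 with the size factors of DESeq2. Eif4a2 made up 77.9% and 86.3% of the reads of the pair in BPA and 51.8% and 71.8% in normal cells. These are shares of reads, not of molecules, since transcript lengths were not used. The pseudogene Eif4a-ps4, which is not a member, had 34 and 106 reads under BPA, against 2793 and 820 in normal cells, so reads of the helicase genes and their copies may have been split between rows, and their counts are uncertain.

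The scaffold Eif4g1, which links the cap to the ribosome through eIF3, had 4258 and 4161 reads under BPA, against 12970 and 7050 in normal cells. Both BPA libraries were below both normal libraries, with a log2 fold change of -0.69 ± 0.44 and an edgeR adjusted p of 0.521. The log2 fold change was -0.33 without BPA replicate 1, -1.0 without BPA replicate 2 and -0.40 without normal replicate 1. Its relative Eif4g2, which lacks the eIF4E-binding site and serves cap-independent initiation, had 14903 and 9122 reads under BPA, against 16392 and 9932 in normal cells. After scaling for library size both BPA libraries were above, at 1718 ± 19.1 CPM against 1347 ± 104 CPM (SD, n = 2 each). The log2 fold change was 0.35 ± 0.35, and 0.3 to 0.56 when a library was left out. It was 0.07 in the fit of genes averaging 1000 reads or more, and the main-fit median of all such genes was 0.34. Eif4g2 took 77.8% and 68.7% of the reads of the 2 scaffolds under BPA, against 55.8% and 58.5% in normal cells. The cap-binding Eif4e had 3928 and 4414 reads under BPA, against 3697 and 3350 in normal cells, higher in both BPA libraries in CPM and with a log2 fold change of 0.76 ± 0.51. Leaving out BPA replicate 1 gave 1.20, and leaving out BPA replicate 2 gave 0.33. Eif4b, which stimulates the helicase, had 6950 and 6654 reads under BPA, against 11973 and 8816 in normal cells, and its groups overlapped in CPM. Eif4h, which also stimulates the helicase, had 2505 and 851 reads under BPA, against 3524 and 2673 in normal cells, lower in both BPA libraries in CPM. Eif4e2, a cap-binding relative that can repress translation, had 308 and 175 reads under BPA, against 396 and 462 in normal cells, with overlap in CPM. Eif4a3, of the exon junction complex, and Eif4g3 had overlapping groups as well. Of the 10 tested genes of this role 5 had positive and 5 negative log2 fold changes.

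**Figure D3:**
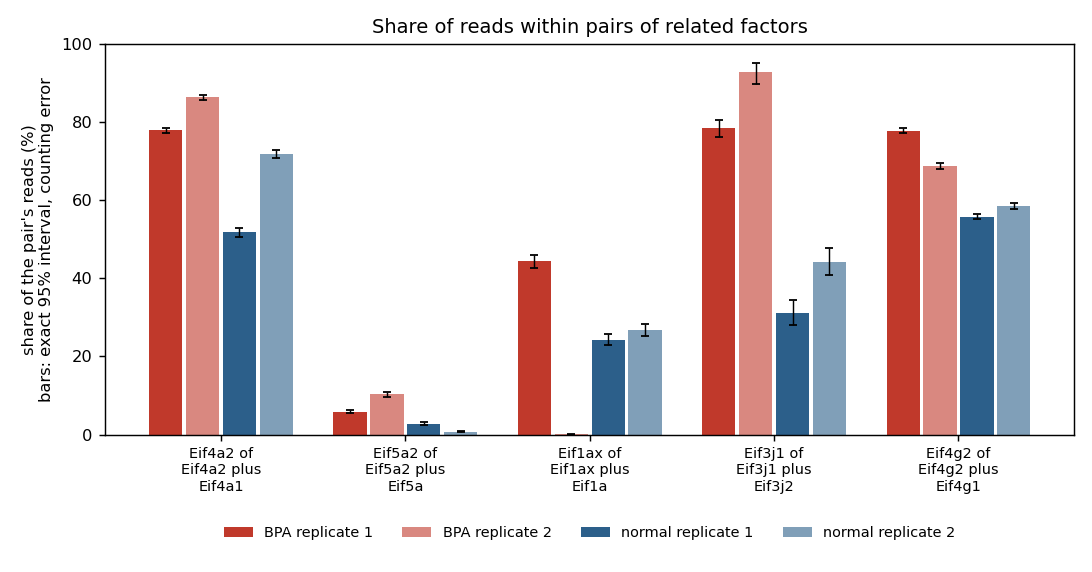
Bars give the share of reads that the first gene of each pair took of the reads of both, in percent, for the 2 BPA libraries (red) and the 2 normal libraries (blue), and error bars are exact 95% binomial intervals for counting error. Eif4a2, Eif5a2, Eif3j1 and Eif4g2 took a larger share in both BPA libraries than in both normal libraries, while the share of Eif1ax was 44.4% in BPA replicate 1 and 0.0853% in BPA replicate 2.

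The inhibitors of eIF4E had negative log2 fold changes in 3 of 3 tested genes (median -0.49), and none had an unadjusted edgeR p under 0.05. All 3 averaged under 1000 reads, where 3811 of 6889 tested genes were negative, with a median of -0.25. Eif4ebp1, which mTOR phosphorylation releases from eIF4E, had 704 and 255 reads under BPA, against 1105 and 499 in normal cells. Eif4ebp2 had 510 and 62 reads under BPA, against 362 and 676 in normal cells. Both had overlapping groups in CPM. Eif4enif1, the transporter of eIF4E, had 265 and 3 reads under BPA, against 821 and 291 in normal cells, lower in both BPA libraries.

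The eIF2 subunit genes lay on both sides. Eif2s1, the alpha subunit that the stress kinases phosphorylate, had 1312 and 1225 reads under BPA, against 862 and 1068 in normal cells. It was higher in both BPA libraries in CPM, with a log2 fold change of 0.86 ± 0.79; leaving out normal replicate 1 gave 0.57, and leaving out normal replicate 2 gave 1.35. Eif2s2, the beta subunit, had 5237 and 1772 reads under BPA, against 8056 and 6200 in normal cells, lower in both BPA libraries, with -0.64 ± 0.48; leaving out BPA replicate 1 gave -1.12, and leaving out BPA replicate 2 gave -0.25. Eif2s3x, the GTP-binding gamma subunit, had 1533 and 55 reads under BPA, against 1105 and 199 in normal cells, with overlap. In the exchange factor eIF2B, 4 of the 5 subunit genes were near 0 in BPA replicate 2. In that library 37.8% of all tested genes had 10 or fewer reads. Among those with a mean under 1000 reads, as all 5 subunit genes had, the share was 47.0%. Eif2b1 had 205 and 0 reads under BPA, against 0 and 97 in normal cells, and Eif2b2 had 0 and 2 against 433 and 26. Eif2b3 had 1175 and 1 reads under BPA, against 332 and 458 in normal cells, and Eif2b4 had 129 and 0 against 220 and 76. Eif2b5, the catalytic subunit, had 561 and 754 reads under BPA, against 846 and 191 in normal cells. Of the 5, only Eif2b2 had both BPA libraries below both normal libraries, at a pooled ratio of 0.00604, and counting error alone allowed 0.000729 to 0.0219 (exact 95% interval). Of the other factors of this role, Eif2a had 890 and 0 reads under BPA, against 1068 and 575 in normal cells, and Eif2d, which can place the initiator tRNA without eIF2, had 2 and 573 against 136 and 61.

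Of the 4 eIF2 kinases, the amino acid sensor Eif2ak4 (GCN2) had 0 and 1 reads in the BPA libraries, against 612 and 181 in the normal libraries. Both BPA libraries lay below, at a pooled ratio of 0.00175 where counting error alone allowed 4.42e-05 to 0.00976 (exact 95% interval). edgeR gave it an adjusted p of 0.372 and DESeq2 one of 0.0642, and neither is under 0.05. Eif2ak1, the heme-regulated kinase, had 3013 and 1082 reads under BPA, against 2084 and 955 in normal cells, higher in both BPA libraries in CPM, with a log2 fold change of 0.87 ± 0.67; leaving out BPA replicate 1 gave 0.44, and leaving out normal replicate 1 gave 1.35. Eif2ak2 (PKR), which senses double-stranded RNA, had 1477 and 3063 reads under BPA, against 1498 and 2491 in normal cells, with overlap. Eif2ak3 (PERK), the kinase of the endoplasmic reticulum, had 15 and 1141 reads under BPA, against 699 and 462 in normal cells, so the BPA libraries lay on either side of the normal ones.

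Among the eIF3 genes Eif3a, the scaffold subunit, had 23795 and 16995 reads under BPA, against 26341 and 13496 in normal cells. In CPM it was higher in both BPA libraries, at 2971 ± 291 CPM against 2007 ± 390.2 CPM (SD, n = 2 each), with a log2 fold change of 0.56 ± 0.32 and an edgeR adjusted p of 0.448. It was 0.41 to 0.90 when a library was left out, and 0.28 in the fit of genes averaging 1000 reads or more. Eif3c, another core subunit, had 15899 and 11872 reads under BPA, against 20226 and 9432 in normal cells, also higher in CPM, with 0.45 ± 0.36. Eif3e had 2064 and 2267 reads under BPA, against 2440 and 2508 in normal cells, and Eif3h had 978 and 664 against 1367 and 968, both with overlap in CPM. Eif3m had 756 and 488 reads under BPA, against 364 and 519 in normal cells, higher in both BPA libraries in CPM. Eif3d, a subunit that can bind the cap of selected mRNAs, had 853 and 86 reads under BPA, against 703 and 452 in normal cells, with overlap.

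Eif3f, a subunit with an MPN domain, had 0 reads in both BPA libraries, against 288 and 492 reads in the normal libraries. With the BPA group set to a floor of 3 counts in all, this was at least 188-fold lower, counting error alone considered. edgeR gave an adjusted p of 0.372 and DESeq2 one of 0.0216. In bulk RNA, fewer cells with a transcript and less RNA per cell cannot be told apart. Low BPA counts were also common beyond this gene. Of all tested genes, 15.6% stayed at 10 reads or below in BPA replicates 1 and 2 alike, beside 0.416% in the normal replicates. Tested genes without BPA reads, Eif3f among them, passed the filter on low counts only through their normal libraries. What part of the Eif3f difference came from the libraries themselves was not tested. Eif3b, a core subunit with an RNA recognition motif, had 1635 and 3 reads under BPA, against 2500 and 1397 in normal cells. Its log2 fold change of -0.89 was -8.38 when BPA replicate 1 was left out and -0.03 when BPA replicate 2 was. Eif3l had 1867 and 1 reads under BPA, against 785 and 131 in normal cells, and Eif3g had 239 and 2 against 390 and 411. Eif3k had its BPA reads in the other library, with 1 and 126 reads under BPA, against 545 and 147 in normal cells. Eif3j1 had 1151 and 368 reads under BPA, against 257 and 382 in normal cells, and its near-identical copy Eif3j2 had 316 and 29 against 567 and 481. The 2 genes lay on opposite sides, with Eif3j1 at 78.5% and 92.7% of their joint reads under BPA, against 31.2% and 44.3% in normal cells. Their split between rows is uncertain because reads may fit both. Of the 14 tested eIF3 genes 7 had positive and 7 negative log2 fold changes (median 0.04).

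Of the factors of start codon selection and subunit joining, 6 of 8 had positive log2 fold changes, the median being 0.38. Positive values were found in 49.4% of all tested genes and in 68.3% of those averaging 1000 reads or more. Eif5b, the GTPase that joins the ribosomal subunits, had 3190 and 4524 reads under BPA, against 3754 and 1558 in normal cells. In CPM both BPA libraries were higher, at 608 ± 336 CPM against 263 ± 88.7 CPM (SD, n = 2 each), with a log2 fold change of 1.17 ± 0.57 and an edgeR adjusted p of 0.372. Leaving out BPA replicate 1 gave 1.72, and leaving out BPA replicate 2 gave 0.52. Eif1, the gatekeeper of start codon choice, had 1016 and 1317 reads under BPA, against 1029 and 834 in normal cells, higher in both BPA libraries in CPM, with 0.85 ± 0.81; leaving out BPA replicate 1 gave 1.39, and leaving out BPA replicate 2 gave 0.32. Eif5, the GTPase activator of eIF2, had 3810 and 1972 reads under BPA, against 2477 and 2958 in normal cells, with overlap. Eif1a had 1941 and 3512 reads under BPA, against 2728 and 2196 in normal cells, with overlap in CPM. Its X-linked relative Eif1ax had 1548 and 3 reads under BPA, against 874 and 803 in normal cells, so a single BPA library carried nearly all its BPA reads. Eif6, which keeps the large ribosomal subunit from joining early, had 3 and 162 reads under BPA, against 262 and 63 in normal cells, and Eif1b had 1 and 205 against 428 and 359.

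Of the 8 elongation factors 3 had positive and 5 negative log2 fold changes. Eef1a1, the carrier of aminoacyl-tRNA, had 8883 and 4721 reads under BPA, against 12120 and 8583 in normal cells. In CPM it was 957 ± 106 CPM in BPA and 1075 ± 35.6 CPM in normal cells (SD, n = 2 each), with both BPA libraries lower and a log2 fold change of -0.16 ± 0.39 (-0.02 without BPA replicate 2). Reads of Eef1a1, Eif1 and Eif5a may also have been shared with processed copies of these genes, so their counts are uncertain too. Eef2, the translocase, had 9303 and 4815 reads under BPA, against 22898 and 7828 in normal cells. Normal replicate 1 stood highest and the groups overlapped in CPM, with a log2 fold change of -0.59 ± 0.42 that was 0.12 without normal replicate 1. Of the eEF1B complex, Eef1g had 4541 and 1962 reads under BPA, against 9181 and 3915 in normal cells, and Eef1b2 had 1551 and 1489 against 5004 and 1542. Eef1d, another subunit of that complex, had 3036 and 1307 reads under BPA, against 4070 and 1386 in normal cells. All 3 overlapped in CPM. Without normal replicate 1 the log2 fold change of Eef1g, -0.53, was -0.01, and that of Eef1b2, -0.51, turned to 0.31. That of Eef1d was 0.17 and turned to -0.11 in the fit of genes averaging 1000 reads or more. Eif5a, which carries the modified residue hypusine, had 12804 and 7875 reads under BPA, against 11201 and 10551 in normal cells. Its log2 fold change of 0.35 ± 0.38 was 0.26 to 0.64 when a library was left out. In the fit of genes averaging 1000 reads or more, Eif5a was at 0.09. Its relative Eif5a2 had 799 and 905 reads under BPA, against 322 and 75 in normal cells. Both BPA libraries were above, at 131 ± 53.9 CPM against 18.8 ± 12.9 CPM (SD, n = 2 each), with a log2 fold change of 2.64 ± 1.18 and adjusted p-values of 0.372 in edgeR and 0.219 in DESeq2. Leaving out a library gave 2.2 to 3.84.

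Among the regulators of elongation, the eEF1A lysine methyltransferases were sparse. Eef1akmt1 had 0 reads in both BPA libraries, against 218 and 95 in the normal libraries, at least 75.3-fold lower on the same terms as Eif3f. Eef1akmt3 had 0 and 0 against 1 and 298, and Eef1akmt4 had 0 and 0 against 7 and 0, and neither passed the filter. Eef1akmt2 had 2 and 371 reads under BPA, against 294 and 105 in normal cells. Eef2k, the kinase that inhibits eEF2, had 118 and 0 reads under BPA, against 143 and 162 in normal cells.

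The BPA libraries differed from each other at many factors. Over 10-fold differences in CPM plus 0.5 between the BPA libraries occurred in 18 of the 60 tested factors, beside 38.5% of all tested genes. Between the normal libraries they occurred in 1 factor, Eif2b1 (1.67%), beside 11.9%. In 6 factors (Eif1ax, Eif2a, Eif2b3, Eif2d, Eif3b and Eif3l) a BPA library had 500 or more reads and the other 10 or fewer, where 11.9% of all tested genes showed this. No factor did so in the normal libraries, where 0.682% of all tested genes did. Of all 62 factors, 11 had 10 or fewer reads in BPA replicate 1 and 16 in BPA replicate 2, against 3 in normal replicate 1 and 1 in normal replicate 2. The shares over the 12404 genes were 49.1% and 54.9% under BPA and 28.3% and 22.8% in normal cells. Of the 60 tested factors 9 and 14 did so in the BPA libraries, beside 29.9% and 37.8% of all tested genes, and 1 and 0 in the normal libraries, beside 7.97% and 4.9%. Among tested factors under 1000 reads, 9 of 35 had 10 or fewer reads in BPA replicate 1 (25.7%) and 13 in BPA replicate 2 (37.1%), beside 37.5% and 47.0% of all such genes. In the normal libraries 1 and 0 of the 35 did so, beside 9.99% and 6.15%. Across both BPA libraries 4 factors (Eif3f, Eif2ak4, Eif2b2 and Eef1akmt1) had 10 or fewer reads, beside 15.6% of all tested genes. In both normal libraries 0 factors did, beside 0.416%. Ranked over the 60 factors, Spearman's rho was 0.767 for the BPA pair and 0.894 for the normal pair, beside 0.549 and 0.741 over all tested genes. BPA replicate 1 had a rho of 0.879 and 0.875 with the normal libraries, above its 0.767 with BPA replicate 2, which had 0.781 and 0.788 with the normal libraries. This describes genes of the same libraries, which are not independent replicates.

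**Figure D4:**
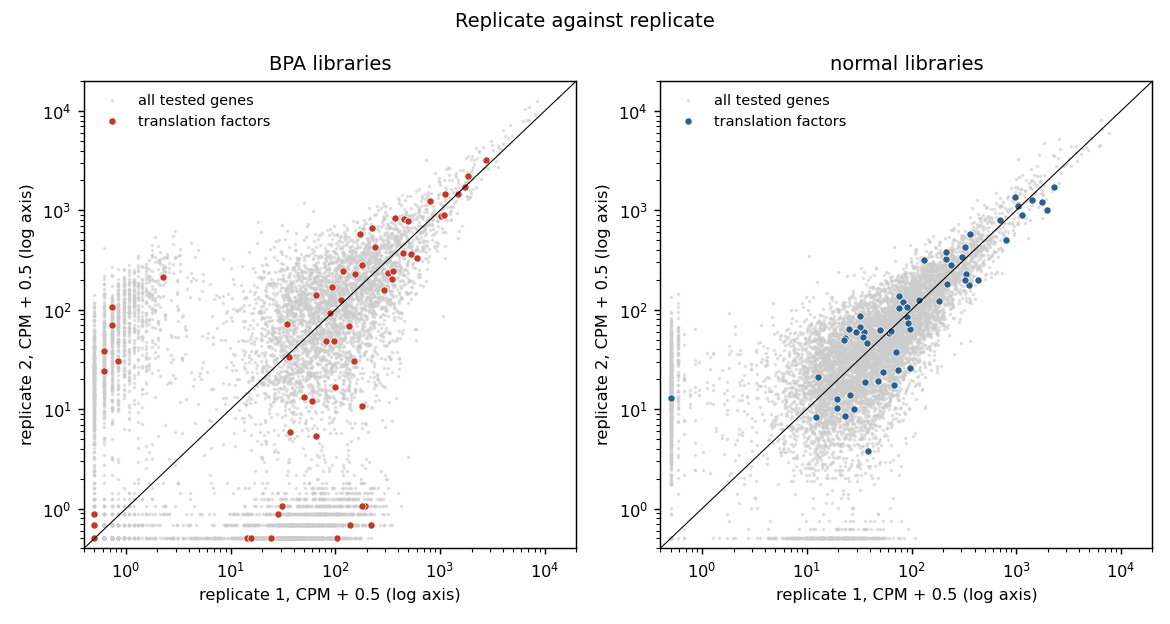
Each point is a gene, with CPM plus 0.5 in replicate 1 on the x axis and in replicate 2 on the y axis, both on log scales, for the BPA libraries (left) and the normal libraries (right). Coloured points are the 60 tested translation factors and grey points all 8645 tested genes. In the BPA panel 18 factors differ by over 10-fold between replicates, many along an axis, while in the normal panel 1 does.

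The partner genes of the pathway were read from 6 lists, of which 57 of 65 listed genes were tested. None was called by edgeR or by DESeq2 (0 each). At an unadjusted p under 0.05, edgeR placed 0 higher, beside 2.41% of all tested genes, and 2 lower, Dph1 and Mtif3, beside 7.23%. There were 30 positive and 27 negative log2 fold changes (median 0.09). Among poly(A) binding and mRNA particle genes 9 of 13 were positive, led by Larp4b with 5093 and 340 reads under BPA, against 1506 and 938 in normal cells. Pabpc1, the main cytoplasmic poly(A)-binding protein, had 34714 and 24787 reads under BPA, against 36785 and 26271 in normal cells, with a log2 fold change of 0.40 ± 0.29. Of the helicases and scanning cofactors 5 of 13 were positive, with Bzw2, a mimic of eIF5, at 8 and 4 reads under BPA, against 563 and 230 in normal cells. Denr, which recycles the small ribosomal subunit, had 6037 and 2259 reads under BPA, against 2786 and 2630 in normal cells. Signalling genes had 6 of 12 positive. Mtor, the kinase upstream of the eIF4E-binding proteins, had 1 and 0 reads under BPA, against 241 and 79 in normal cells, and Rps6kb2, an S6 kinase gene, had 5 and 0 against 168 and 40.

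Diphthamide is a modified residue of eEF2 that diphtheria toxin targets. Of the genes that make it, 3 of the 6 tested were positive and 3 negative. Their median of -2.76 stays the same with genes at 0 reads set to their bound. It describes no gene, since none lay between Dph3 at -5.62 and Dph5 at 0.09. The negative genes Dph1, Dnajc24 and Dph3 had at most 10 reads in each BPA library, as did 15.6% of all tested genes. The positive Dph6 and Dph7 had 1249 and 1 and 336 and 0 reads under BPA. Dph1, of the first diphthamide step, had 0 reads in both BPA libraries, against 131 and 111 in the normal libraries, at least 58.2-fold lower on those terms. Dnajc24, its cofactor also known as Dph4, had 0 and 0 against 97 and 153, again at least 60.1-fold lower. Mitochondrial translation factors had 3 of 7 positive. Mtif3, a mitochondrial initiation factor, had 0 and 0 reads under BPA, against 131 and 47 in normal cells, at least 42.8-fold lower by the same reckoning, and Gfm1 had 0 and 124 against 552 and 186. Termination and rescue factors had 4 of 6 positive, with Zfp598, which marks collided ribosomes, at 512 and 80 reads under BPA, against 146 and 101 in normal cells. Etf1, the release factor that reads stop codons, had 5781 and 7043 reads under BPA, against 6764 and 6399 in normal cells.

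The second comparison asked where the m6A signal over input differed between the conditions. The authors' deposited table of 3331 differential peaks gave 1 pooled RPM (reads-per-million) value per condition for the immunoprecipitate (IP) and for the input, so no spread between libraries could be had. Peak positions are 1-based and were read as build GRCm39. The table held 56 peaks in 30 of the factors, from 25 to 175 bases wide, and 17 of them joined 2 or more blocks, beside 19.6% of all peaks. By the authors' log2 fold change of IP over input, 40 peaks were higher in BPA (71.4%), beside 68.8% of all peaks of the table, and 16 were lower (28.6%), beside 31.2%. There were 16 factors with higher peaks alone, 6 with lower peaks alone and 8 with both. The cap-binding and helicase genes had 12 higher and 1 lower, the eIF3 genes 10 and 6, and start selection and joining 7 and 2. The elongation factors had 4 and 3, and the genes of eIF2 and its exchange factor 5 and 3. The BPA input was under 10 RPM in 8 of the 13 cap-binding and helicase peaks and 7 of the 16 eIF3 peaks. It was so in 2 of 9 peaks of start selection and joining, 3 of 7 of elongation and 6 of 8 of eIF2 and its exchange factor. Of all peaks 47.0% had a BPA input under 10 RPM. The median of the authors' log2 fold change was 5.02 for the factors and 3.33 for all peaks.

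Most of the higher peaks had little BPA input. In 26 of the 40 the pooled BPA input was under 10 RPM. Those 26 were 46.4% of the factor peaks, beside 40.2% among all peaks. Over the 56 peaks the median was 216 RPM in the BPA IP and 229 RPM in the normal IP, while it was 9.78 RPM in the BPA input and 210.4 RPM in the normal input. The smallest value above 0 was 1.22 RPM in the BPA input and 0.59 RPM in the normal input. The BPA input was under 10 RPM in 28 of the 56 peaks (50.0%, beside 47.0% of all peaks), and the normal input in 6 (10.7%, beside 11.0%).

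**Figure D5:**
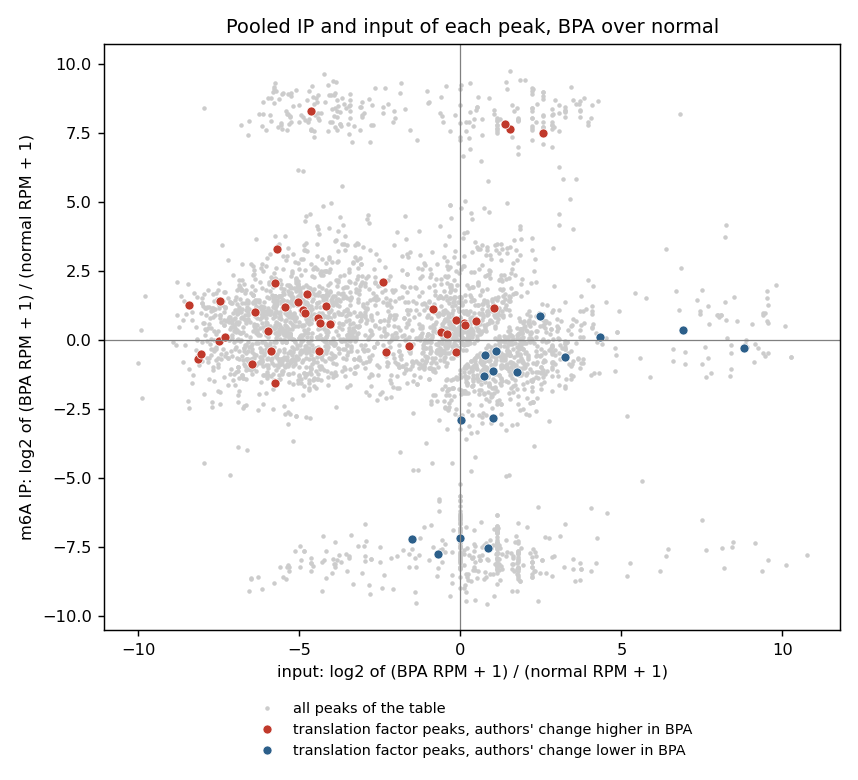
Each point is a peak, with the log2 ratio of BPA to normal in pooled input RPM plus 1 on the x axis and in pooled IP RPM plus 1 on the y axis. Grey points are all 3331 peaks, red points the 40 factor peaks with a higher and blue points the 16 with a lower change of IP over input in the authors' deposited table. Of the 40 red points 30 lie above 0 on the y axis, with a higher IP in BPA, and 26 had a BPA input under 10 RPM.

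Low BPA input was also seen at peaks of genes with high counts. Factors with at least 1000 reads in both BPA libraries had 35 peaks, and in 17 of these (48.6%) the BPA input was under 10 RPM, beside 39.3% of the 1178 peaks of all such genes. For Eif4a2, whose counts were higher in BPA, the peak at chr16:22932601-22932650 had 4.89 RPM in the BPA input and 307 RPM in the normal input. Another peak of Eif4a2 was listed at 0 in the normal input and is lower in the authors' deposited table, at -5.1. Its remaining peak had 8.56 RPM in the BPA input and 28.2 RPM in the normal input, and is higher there, at 2.29. At the first, the IP had 550.1 RPM in BPA and 55.2 RPM in normal cells, and the authors' deposited table gives a log2 fold change of 10.07. Eif1a, with 1941 and 3512 reads in the BPA libraries, had 1.22 RPM in the BPA input of its peak and 352 RPM in the normal input. Eif4e had 7.33 RPM in the BPA input and 485 RPM in the normal input at chr3:138261896-138262020, with 266 RPM in the BPA IP and 348 RPM in the normal IP. Eif4g2 had 1.22 RPM in the BPA input and 138 RPM in the normal input, and Eif5 had 3.67 RPM against 94.5 RPM. A peak of Eif3c was listed at 0 in the BPA input and at 343 RPM in the normal input, and a peak of Eif4a1 at 0 and 281 RPM. The design text names the RNA-seq as the input, yet at these peaks the pooled BPA input was under 10 RPM while the genes had over 1000 reads in both BPA libraries. The reason was not tested.

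Peaks with signal in all columns gave smaller values. In 24 peaks of 13 factors (42.9%) all 4 columns had at least 10 RPM, beside 42.4% of all peaks, and there 14 were higher and 10 lower by the authors' deposited table, with a median log2 fold change of 0.95. Of all 1412 such peaks 60.7% were higher, with a median of 0.89. The authors' log2 fold change lay 0.78 above the value that the RPM columns themselves give (IP over input, BPA over normal) throughout the 826 peaks with at least 100 RPM in every column. By the RPM ratio itself 13 of the 24 were higher and 11 lower. The peak of Eif3c at chr7:126157812-126157861, at 0.47 in the authors' deposited table, changed direction between these readings.

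Among the well-covered peaks, 2 peaks of Eif1 were higher. The peak at chr11:100212125-100212174 had 1256 RPM in the BPA IP and 583 RPM in the normal IP, with inputs of 584 RPM in BPA and 1054 RPM in normal cells and a log2 fold change of 2.74 in the authors' deposited table. The other, at chr11:100211825-100211899, had 450.1 RPM in the BPA IP and 313 RPM in the normal IP over inputs of 574 and 521 RPM. Eif4g1 at chr16:20502398-20502663 had 960.0 RPM in the BPA IP and 786 RPM in the normal IP, over inputs of 1041 RPM in BPA and 1582 RPM in normal cells. Eif1ax had 839 RPM in the BPA IP and 511 RPM in the normal IP, over inputs of 324 and 355 RPM, and Eif4h had 657 against 431 RPM over inputs of 320.2 and 299 RPM. Both were thus higher in the IP at like pooled inputs, with 1.62 and 1.29 in the authors' deposited table. The 0.78 by which the authors' values lay above the RPM columns applies to both. For Eif1ax the BPA libraries had 1548 and 3 reads, a difference that the pooled input does not show.

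Eef2 had a lower IP at a like input. At chr10:81015895-81016069 it had 117 RPM in the BPA IP and 898 RPM in the normal IP, at inputs of 939 RPM in BPA and 926 RPM in normal cells. The authors' deposited table gives it a log2 fold change of -2.18. Eef2 had 3 more peaks, 1 lower and 2 higher, so the gene had no single direction. Eif3h at chr15:51659865-51659889 had 49.9 RPM in the BPA IP and 357 RPM in the normal IP, over inputs of 490.1 and 241 RPM, with -3.09 in the authors' deposited table. Eef1a1 had a lower peak, with 142 RPM in the BPA IP against 355 RPM, and a higher one, with 713 against 301 RPM. In 4 peaks the BPA IP was under 10 RPM, beside 11.7% of all peaks, and 3 of them still had BPA input: Eif3d had 0.26 RPM in the BPA IP over an input of 169.9 RPM, Eif2s3x 0.26 RPM over 291 RPM and Eif3j2 0.77 RPM over 103 RPM. Their normal IPs had 274 RPM in Eif3d, 236 RPM in Eif2s3x and 262 RPM in Eif3j2. The fourth, in Eif2b1, had 0.51 RPM in the BPA IP and 218 RPM in the normal IP and was listed at 0 in both inputs.

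In the eIF3 genes, Eif3a had a lower peak, with 322 RPM in the BPA IP and 708 RPM in the normal IP, and 2 higher ones. All 3 peaks of Eif3b had a BPA input listed at 0 or 1.22 RPM, beside 3 reads in BPA replicate 2 for the gene, and IPs of 92.9 to 263 RPM in BPA and 52.8 to 133 RPM in normal cells. Eif3m had 305 RPM in the BPA IP and 404 RPM in the normal IP over inputs of 479 and 224 RPM. Eef1g, an elongation factor, had 132 RPM in the BPA IP and 61.6 RPM in the normal IP over inputs of 4.89 and 175 RPM.

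Eif5b had more input in BPA. At chr1:38073135-38073184 its input was 1393 RPM in BPA and 10.6 RPM in normal cells, at an IP of 430.1 RPM in BPA and 339 RPM in normal cells. At chr1:38075124-38075148 the input was 1913 RPM in BPA and 93.9 RPM in normal cells, at IPs of 431 and 395 RPM. Both are lower in the authors' deposited table, at -5.92 and -3.45, with an IP that was not lower in BPA. Its other 2 peaks, with 165 and 169 RPM in the BPA input and 118 and 227 RPM in the normal input, are higher there, at 1.00 and 1.41. Eif2s1 had 219.8 RPM in the BPA IP and 268 RPM in the normal IP, with 442 RPM in the BPA input and a normal input listed at 0. In 4 peaks the IP was above 200 RPM in BPA and under 10 RPM in normal cells, where 8.41% of all peaks were under that level. By the IP alone 33 of the 56 peaks were higher in BPA, beside 54.2% of all peaks. Eif2b3 had 433 RPM in the BPA IP and 0.37 RPM in the normal IP, Eif2s2 351 against 0.56 RPM, Eif3d 239 against 0.19 RPM and Eif4e2 213 against 0.19 RPM. The BPA input at these 4 peaks was 1.22, 6.11, 3.67 and 4.89 RPM. Eif3d thus had a peak of each kind within the same gene. A further 2 peaks of Eif4e2 had identical values in all 4 columns. Of the inhibitors and kinases, Eif4ebp1 had 289 RPM in the BPA IP and 424 RPM in the normal IP over inputs of 827 and 485 RPM, Eif4ebp2 had 117 against 44.8 RPM over 1.22 and 72.8 RPM, and Eif2ak2 had 115 against 49.4 RPM over 2.44 and 148 RPM.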

How the data were processed

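Per the labels' protocols, an m6A antibody was used on fragmented poly(A) RNA of TM3 cells. Whole read counts per Ensembl gene were deposited by the authors. Tools named in the submitters' processing notes are HISAT2 2.2.1, featureCounts 2.0.1, DESeq2 1.38.3 and fastp 0.20.1; the builds named are GRCh38 and GRCm39. They do not say how strand and reads with several matches were treated. No assay is named in the headers of the count columns, which were read as RNA-seq because featureCounts is among those tools and RNA-seq is called the input in the design text. Of 12404 gene IDs, 12271 had a symbol. Per peak, the authors deposited RPM pooled over replicates for IP and input, a log2 fold change of IP over input, a p-value with its false discovery rate (at most 0.00297 for the factors), and a −log10 p that was not used here. The peak caller is also not stated. Coordinates were shifted to 1-based. Their build was taken to be GRCm39: by gene positions of GRCm38, 11.3% of 3176 peaks fell inside their gene. No genome of that build was used, so where peaks lie within transcripts was not analysed.

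Counts were tested with edgeR 4.0.16 (R 4.3.3): TMM, filterByExpr (minimum count 10, minimum total 15), a robust quasi-likelihood F test without the legacy setting, and p-values adjusted by Benjamini-Hochberg over 8645 genes, called at 0.05. The F statistic gave the standard errors. The filter took the groups into account, so reads in the libraries of a single condition were enough to pass. The code was tested on simulated data. DESeq2 1.42.0 and the other alternatives are in the closing section. Reads in every library are given for core factors, the 6 with the smallest p in each direction, those with a peak and those at 0 in a group. Further factors were named after their values were seen. Intervals and floors speak of counting error alone: without molecular identifiers, reads may be copies of the same molecule. The members and the lists were chosen with earlier results of these data known. Transcript lengths were not used, so levels are not compared between genes.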

Additional observations from a re-analysis of the deposited data

How the results depend on the processing

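edgeR called 0 factors and 0 partner genes under every alternative run, which were DESeq2's size factors, no filter on low counts, a fit of abundant genes (mean of 1000 reads or more), replicate number as a block and leaving out each library. DESeq2 in place of edgeR called 2 factors. Samples share only a number: the deviations of replicate 1 from the group means had a correlation of -0.00275 across 8645 genes. The median log2 fold change of the factors, 0.13, was -0.01 with replicate number as a block and ranged from -0.33 to 0.24 when a library was left out, with -0.33 without BPA replicate 1. The medians of all genes in the leave-one-out fits were -2.87 and -1.13 without BPA replicates 1 and 2. They were -0.04 and -0.02 without normal replicates 1 and 2. The factors' median lay above that of all genes in each, but these fits were not matched for abundance. At matched abundance in the main fit, factors of at least 1000 mean reads had a median of 0.35, beside 0.34 for all such genes. Under 1000 reads it was -0.28, beside -0.25. With the size factors of DESeq2 the median of all genes was 0.12 in place of -0.02, and that of the factors 0.28.

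Among 29 factors with a log2 fold change followed over the alternatives, 21 kept their sign in all. The 29 were not drawn evenly from all factors: most were abundant, and the rest were among those with the smallest p. Eif3f, Eef1akmt1, Eif2ak4 and Eif2b2 had at most 2 reads in each BPA library, so their sign could hardly turn. Less abundant factors whose BPA libraries lay on opposite sides of the normal ones, such as Eif2ak3 and Eif1ax, were not followed. The 21 thus do not give the stability of the factors as a whole. Eif4a1, at -0.03, was 0.11 with DESeq2's size factors and in DESeq2 and 0.04 without a filter, and -0.24 to 0.42 when a library was left out. Eif4b, at -0.09, was 0.05 in both of the first 2 settings and -0.38 to 0.25. Eef1d, at 0.17, was -0.11 in the fit of abundant genes and -0.19 to 0.91. Leaving out a library also turned Eef1b2 (-0.92 to 0.31), Eef2 (-0.97 to 0.12), Eif1a (-0.15 to 1.40), Eif2ak2 (-0.31 to 1.49) and Eif3e (-0.09 to 0.74). A lone library was then assumed to vary like the other group.

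Requiring 10 RPM in every column left 14 higher and 10 lower of the 40 and 16 factor peaks. A threshold of 0.01 kept the counts at 40 and 16, which it could not change, since no factor peak had a false discovery rate above 0.00297. Direction from the IP alone gave 33 and 23, and from the RPM ratio, an alternative chosen after seeing the data, 39 and 17. With 2 libraries a group and a median standard error of 1.29 for tested factors under 1000 reads and 0.56 for the 25 with more, edgeR called no gene, whatever the size of its difference.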
